A study of Mus musculus with 178 samples.

Results

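The comparison was between stable disease and progressing non-responders in whole blood on Day 9, the first collection after anti-PD-1 antibody treatment had begun. It comprised 30 of the 178 libraries of the series, 15 from mice with stable disease (SD) and 15 from mice that progressed (PD), each from a separate animal. All mice were C57BL/6J mice that received 4MOSC1 cells, a carcinogen-induced mouse oral carcinoma line, in the tongue or the buccal mucosa, and all were given anti-PD-1 (clone RMP1-14), so no untreated or tumor-free group entered. The site of injection is not given per mouse, and the model rests on 1 tumor line. The sample labels call all 30 mice non-responders. The division into SD and PD was read from the library numbers, following the groups in the source data of the study, and mouse PD330, counted here as PD, is listed there as SD on Day 24. Mice are named here by group and ear tag. The tags have 3 or 4 digits, which may mark separate batches: 4 of 15 SD mice and 3 of 15 PD mice had 4-digit tags, and the tag series was a term in every model unless stated. The 15 responders of Day 9 (R), of which 11 had 4-digit tags, are given for orientation.

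PD-1 is an inhibitory receptor of activated T cells, and antibodies that block it release T cells from that inhibition. Blood samples the immune cells that travel to and from a tumor: neutrophils and monocytes that leave the bone marrow, lymphocytes that recirculate through lymph nodes, and red cells and platelets, which bring most of the RNA of whole blood. In outcome criteria for solid tumors, stable disease lies between response and progression.

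Total estimated counts per library ranged from 41254434 to 63344659. Haemoglobin transcripts took from 69.34% to 84.08% of them and left between 6980062 and 14763151 counts for all other genes. The haemoglobin share was 77.3% ± 3.32 in SD and 79.2% ± 3.91 in PD (SD, n = 15 each; two-sided permutation test, p = 0.17, adjusted p = 0.43 over 5 library values), and the groups overlapped almost entirely. Totals, counts outside haemoglobin, TMM scaling factors and numbers of genes detected had adjusted p between 0.43 and 0.99 in the same test. No pair of libraries held identical values. The study used mice of both sexes, but the Y-linked genes Ddx3y, Eif2s3y and Uty had 0 counts in 30 of 30 libraries. Kdm5d, also Y-linked, had at most 1 count. Xist, which is expressed in female cells, had 3565 to 18820 counts and was at 0 in no library. By these genes all 30 libraries came from female mice.

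No gene passed the test between SD and PD mice on Day 9. Of 12425 genes tested with edgeR's quasi-likelihood test, 0 passed an adjusted p of 0.05 (percent called 0, lowest adjusted p = 0.62), and DESeq2 also called 0. At an unadjusted p under 0.05 there were 966 genes, 664 higher in SD (5.34% of those tested) and the others lower (2.43%). With upper-quartile scaling in place of TMM scaling that split was 399 higher and 454 lower, and among mice with 3-digit tags alone it was 230 higher and 297 lower. Without the single library SD318, 642 genes had an unadjusted p under 0.05, and more of them were lower than higher. With DESeq2, 912 genes had an unadjusted p under 0.05, 557 higher and 355 lower. On TPM nearly all such genes were higher, with 846 higher and 3 lower by limma on log2(TPM + 1). Wilcoxon tests on TPM, which had no term for the tag series, gave 419 higher and 2 lower. Which direction held more genes thus depended on the scaling, the tag series and 1 library. The adjusted p of every gene named below in this comparison was 0.62 or above, and none of the values below passed the test.

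Given TMM scaling, the data limited how large a difference could be. The intervals below take that scaling as exact. By limma on TPM with a minimum mean of 1, the median of all genes was 0.16 or 0.23, depending on the pseudocount. The median difference over all genes was -0.0011 on the log2 scale, the median absolute difference 0.057, and 95% of genes differed by less than 0.28. For 11346 genes (91.3%) the 95% confidence interval lay within 1.5-fold in either direction. That share was 68.8% of the 2379 genes under 1 CPM (a gene's counts scaled to the library total), 95.7% of the 6547 genes from 1 to 10 CPM, 98.7% of the 3262 genes from 10 to 100 CPM and 94.9% of the 237 genes over 100 CPM. The intervals were widest for scarce transcripts, with a median half-width of 0.35 on the log2 scale under 1 CPM, and were wider over 100 CPM (0.18) than from 10 to 100 CPM (0.091).

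Levels of single genes are given as TMM-scaled CPM. Among the 6 genes of smallest p that were higher in SD, Rnf166, a RING finger ubiquitin ligase (chromosome 8, 122466147 to 122476064, GRCm38), had levels of 7.78 to 9.93 (median 8.47) in SD and 6.80 to 8.78 (median 7.79) in PD. The log2 difference was 0.17 (SE 0.041, unadjusted p = 0.0003). Of the 15 SD libraries, 14 lay above the PD median and 7 above every PD library, and responders had a median of 8.28. Map3k11, a kinase upstream of JNK signalling (chromosome 19, 5688742 to 5702865), had levels from 13.5 to 16.9 (median 15.1) in SD and from 11.7 to 15.6 (median 13.3) in PD, a log2 difference of 0.16 (SE 0.041). All 15 SD libraries lay above the PD median of Map3k11, and 5 lay above every PD library. Atg4d, a protease of autophagy (chromosome 9, 21265293 to 21277772), showed the same placement, with 15 of 15 SD libraries above the PD median, levels of 4.00 to 4.94 against 3.13 to 4.75, and a log2 difference of 0.20 (SE 0.051). Ndst2, an enzyme of heparin synthesis, differed by 0.20 (SE 0.054), and Prex1, an activator of Rac in neutrophils, by 0.14 (SE 0.039). Fut4, a fucosyltransferase that builds selectin ligands on leukocytes, had the widest difference of these 6, 0.40 (SE 0.11), with levels of 1.60 to 3.00 in SD and 1.23 to 2.80 in PD. The 6 genes thus differed by 1.1-fold to 1.32-fold, and in each the 2 groups overlapped.

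Among the genes lower in SD, Stx1a, a syntaxin of vesicle fusion (chromosome 5, 135023482 to 135051100), had the smallest p. Its levels were 0.371 to 0.760 (median 0.619) in SD and 0.411 to 1.09 (median 0.814) in PD, a log2 difference of -0.48 (SE 0.11, unadjusted p = 0.000163). No SD library lay above the PD median of Stx1a, and 2 lay below every PD library. Akr1e1, an aldo-keto reductase (chromosome 13, 4590750 to 4609174), had levels of 0.174 to 0.456 in SD and 0.285 to 0.555 in PD, a log2 difference of -0.54 (SE 0.13), with 9 SD libraries below every PD library. Brca2, a DNA repair gene of homologous recombination, had levels of 0.621 to 0.992 in SD and 0.569 to 1.27 in PD, a log2 difference of -0.36 (SE 0.091). None of the 15 SD libraries exceeded the PD median of Brca2, although the lowest library of all was a PD library. Odf2l differed by -0.38 (SE 0.11), Jag2, a Notch ligand, by -0.52 (SE 0.15), and Lsm6, a subunit of an RNA-binding ring, by -0.16 (SE 0.046). Apart from Lsm6 these genes were near or under 1 CPM, where single intervals were wide. Responders lay nearer to SD for Stx1a (median 0.597) and Brca2 (median 0.760) and above both groups for Lsm6 (median 5.33). These medians, like that of Rnf166, have no term for the tag series, and 11 of 15 responders had 4-digit tags.

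**Figure D1:**
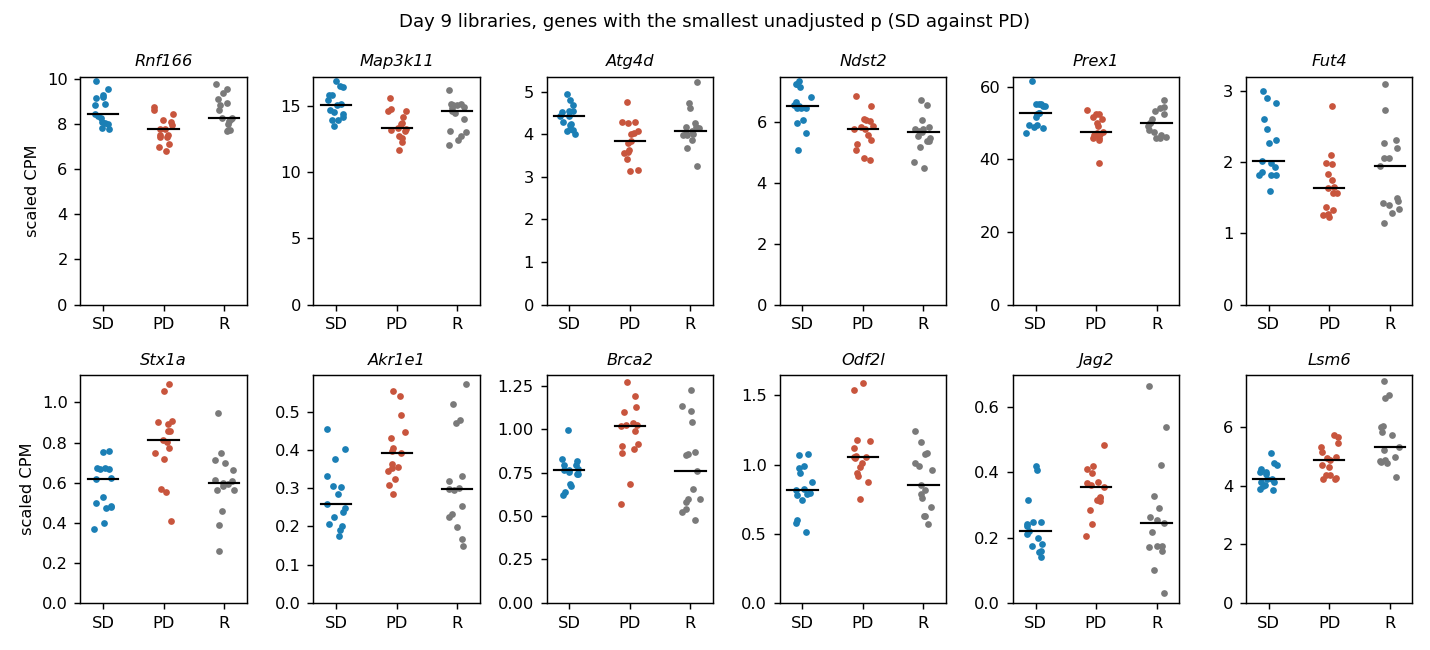
TMM-scaled CPM of the 12 genes of smallest unadjusted p, higher in stable disease in the upper row and lower in the lower row, with 1 point per Day 9 library and bars at group medians. In every panel the SD and PD points overlap, and for Map3k11 and Atg4d all 15 SD points lie above the PD median.

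Genes of myeloid cells leaned towards SD without a call. Here, as elsewhere in whole blood, fewer cells of a type and less RNA per cell cannot be told apart. Of 24 markers of mature neutrophils tested, 22 had a positive log2 difference, 4 had an unadjusted p under 0.05, all higher in SD, and the median was 0.21, against -0.0011 over all genes. S100a8, an alarmin of neutrophils, had levels of 28.0 to 89.2 (median 61.5) in SD and 29.2 to 76.2 (median 46.8) in PD, a difference of 0.26 (SE 0.15). Csf3r, the receptor for the growth factor G-CSF, differed by 0.21 (SE 0.13). Mmp9 and Ly6g, chosen after their values were seen, were among the 4. Mmp9, a gelatinase stored in neutrophil granules (chromosome 2, 164940780 to 164955850), had levels of 35.3 to 89.8 (median 58.0) in SD and 27.6 to 67.3 (median 45.5) in PD, a difference of 0.34 (SE 0.12). Of the SD libraries, 12 lay above the PD median of Mmp9. Ly6g, the surface antigen that defines mouse neutrophils, differed by 0.61 (SE 0.25), at levels under 2 CPM, but by -0.30 among mice with 4-digit tags alone. Of 10 granule genes of neutrophil precursors tested, 7 had a positive difference, and 3 were higher in SD and 0 lower at an unadjusted p under 0.05, with a median of 0.25. They ranged from -0.25 (SE 0.36) for Ltf, which encodes lactoferrin, to 0.60 (SE 0.30) for Prtn3, a serine protease, with Camp, an antimicrobial peptide gene, at -0.02 (SE 0.39).

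Classical monocyte genes had a median of 0.22, with 18 of 19 positive, 3 higher and 0 lower at an unadjusted p under 0.05. Ly6c2, their surface marker, differed by 0.26 (SE 0.16), and Ccr2, the chemokine receptor by which they leave the marrow, by 0.28 (SE 0.16). Csf1r, the receptor for the monocyte growth factor, was chosen after its values were seen and had levels of 36.4 to 79.8 (median 52.5) in SD and 34.0 to 70.5 (median 44.7) in PD. Its difference was 0.27 (SE 0.11), with 13 of 15 SD libraries above the PD median. Patrolling monocyte genes had a median of 0.10, with 10 of 15 positive, and 5 higher and 0 lower at an unadjusted p under 0.05. Among them Cx3cr1, the fractalkine receptor (chromosome 9, 119901616 to 120069879), had levels of 7.15 to 21.5 in SD and 8.30 to 18.2 in PD, a difference of 0.27 (SE 0.12). Nr4a1, the nuclear receptor these monocytes require, differed by 0.27 (SE 0.12) with 14 of 15 SD libraries above the PD median, and Ace differed by 0.23 (SE 0.098).

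Related lists varied in how many of their genes were positive. Fc receptor and complement genes had a median of 0.18, with 14 of 20 positive, and 5 higher and 1 lower at an unadjusted p under 0.05. Fcgr3, a low-affinity receptor for IgG, had levels of 11.1 to 28.1 (median 18.1) in SD and 11.4 to 19.0 (median 15.5) in PD, a difference of 0.27 (SE 0.10). Fcgr2b, another receptor for IgG, differed by 0.009. The gene that was lower, C1qa, chosen after its values were seen, is made by tissue macrophages and is given below with the tissue genes. Toll-like and innate sensing genes had a median of 0.13, with 6 of 23 higher and 0 lower. Of these, Tlr13 and Tlr8, endosomal sensors of RNA chosen after their values were seen, differed by 0.30 (SE 0.10) and 0.27 (SE 0.11), while Tlr2, at the cell surface, differed by 0.04 (SE 0.15). Interferon-stimulated genes had a median of 0.11, with 27 of 36 positive and 4 higher and 0 lower at an unadjusted p under 0.05. Among its first members Isg15, a ubiquitin-like protein, differed by -0.17 (SE 0.16), Ifit1 by -0.06 (SE 0.12) and Ifit2 by 0.04 (SE 0.087). Oas1a and Oas1g, sensors of double-stranded RNA chosen after their values were seen, were among the 4, at 0.32 (SE 0.14) and 0.41 (SE 0.15). Basophil, mast cell and eosinophil genes had a median of 0.19, with 2 of 14 higher and 0 lower. The basophil protease Mcpt8 differed by 0.61 (SE 0.27), at medians of 0.522 in SD and 0.349 in PD. Chemokine and chemokine receptor genes had a median of -0.02, with 10 of 22 positive. For MHC class II and dendritic cell genes the median was -0.02, with 9 of 19 positive.

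The medians of the neutrophil, monocyte, Fc receptor, Toll-like and interferon lists stayed positive in each of 44 alternative analyses. All of these analyses, those of a single tag series included, draw on the same libraries, and they are no independent evidence. On TPM the median of all genes was itself above 0, by as much as 0.23, so a positive sign there says little. Among mice with 3-digit tags alone the medians were 0.23 for mature neutrophils and 0.17 for classical monocytes, and among the 7 mice with 4-digit tags 0.13 and 0.38. The basophil list turned to -0.13 among mice with 4-digit tags.

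**Figure D2:**
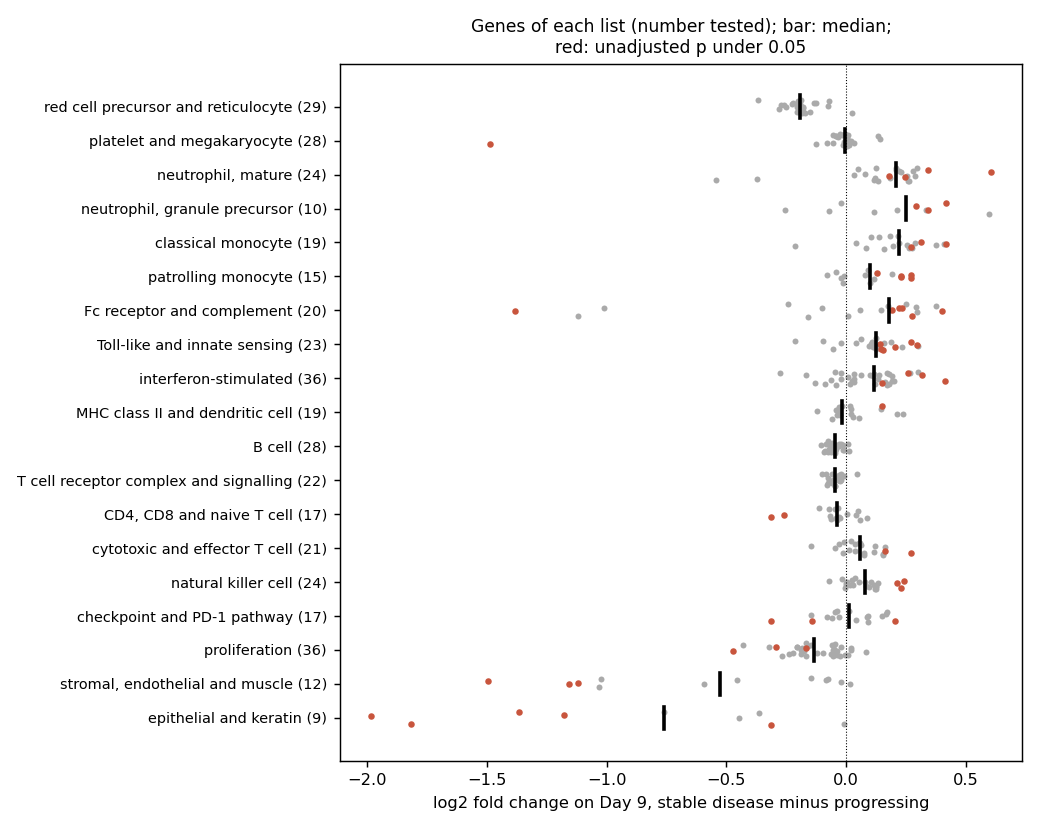
Log2 fold changes on Day 9, stable disease minus progression, of the tested genes in 19 lists, with 1 point per gene, black bars at list medians and red points for an unadjusted p under 0.05. Neutrophil and monocyte lists lie right of 0 (median 0.21 for mature neutrophils), lymphocyte lists lie close to it, and the stromal and epithelial lists spread to -1.50 and -1.99.

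Lymphocyte genes lay close to 0, mostly on the side of PD. All 28 B cell genes and all 22 genes of the T cell receptor complex and its signalling had a 95% interval within 1.5-fold, and 0 of either list had an unadjusted p under 0.05. The list medians were -0.05 and -0.05, and the signs were one-sided, with 2 of 28 B cell genes and 1 of 22 T cell receptor genes positive. By tag series, the B cell median was -0.07 with 3 digits and turned to 0.009 with 4 digits. The T cell receptor median was -0.02 and -0.14. Ms4a1, which encodes CD20, had levels of 63.7 to 90.6 (median 75.2) in SD and 65.2 to 93.0 (median 80.1) in PD, a difference of -0.07 (95% interval -0.18 to 0.04). The difference was -0.09 (-0.19 to 0.01) for Cd22, an inhibitory receptor of B cells, and -0.04 each for Cd79a and Cd79b, the signalling chains of the B cell receptor (-0.17 to 0.08). Cd3e, a chain of the T cell receptor complex, had levels of 6.95 to 10.4 in SD and 7.87 to 10.6 in PD, a difference of -0.04 (-0.17 to 0.08). The co-receptors Cd4 and Cd8a differed by -0.07 each, with intervals from -0.20 to 0.06 and from -0.20 to 0.07. The SD and PD ranges of these genes overlapped throughout.

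The named genes of effector function also had intervals within 1.5-fold. The cytotoxic and effector list had a median of 0.06, with 2 of 21 higher and 0 lower at an unadjusted p under 0.05, and the natural killer list 0.08, with 3 of 24 higher and 0 lower. Gzmb, the cytotoxic granule protease granzyme B, had levels of 3.43 to 5.18 (median 4.36) in SD and 2.66 to 5.28 (median 3.81) in PD, a difference of 0.12 (-0.05 to 0.30). Tbx21, the transcription factor T-bet, differed by 0.16 (-0.06 to 0.39), Nkg7, a granule membrane protein, by 0.07 (-0.10 to 0.25), and the homing receptors Cxcr3 and Cxcr6 by -0.01 (-0.20 to 0.18) and -0.05 (-0.27 to 0.18). Of the effector memory T cell signature of the study, 158 genes were tested, with 12 higher and 2 lower at an unadjusted p under 0.05 and a median of 0.01. Of its B cell signature, 128 were tested, with 2 higher and 0 lower and a median of -0.03. The study drew both signatures from single-cell data of a separate cohort of mice. The copies used here hold 158 and 133 genes and are somewhat shorter than the published lists.

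Of 17 checkpoint and PD-1 pathway genes, 1 was higher and 2 were lower at an unadjusted p under 0.05. Ctla4, an inhibitory receptor of activated and regulatory T cells, had levels of 0.482 to 1.24 (median 0.814) in SD and 0.601 to 1.38 (median 1.04) in PD, a difference of -0.31 (SE 0.14), with 3 of 15 SD libraries above the PD median. Vsir, which encodes the inhibitory ligand VISTA of myeloid cells, was chosen after its values were seen and differed by 0.20 (SE 0.078), with 12 SD libraries above the PD median. Cd274, the PD-1 ligand PD-L1, differed by -0.03 (-0.26 to 0.20). Pdcd1, the antibody's target, had 1 to 15 counts per library (median 9) and did not pass the filter on low counts of this comparison. In the model with responders it was kept, and its log2 difference from R was -0.37 (SE 0.32, adjusted p = 0.61) in SD and -0.63 (SE 0.32, adjusted p = 0.33) in PD, by edgeR.

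**Figure D3:**
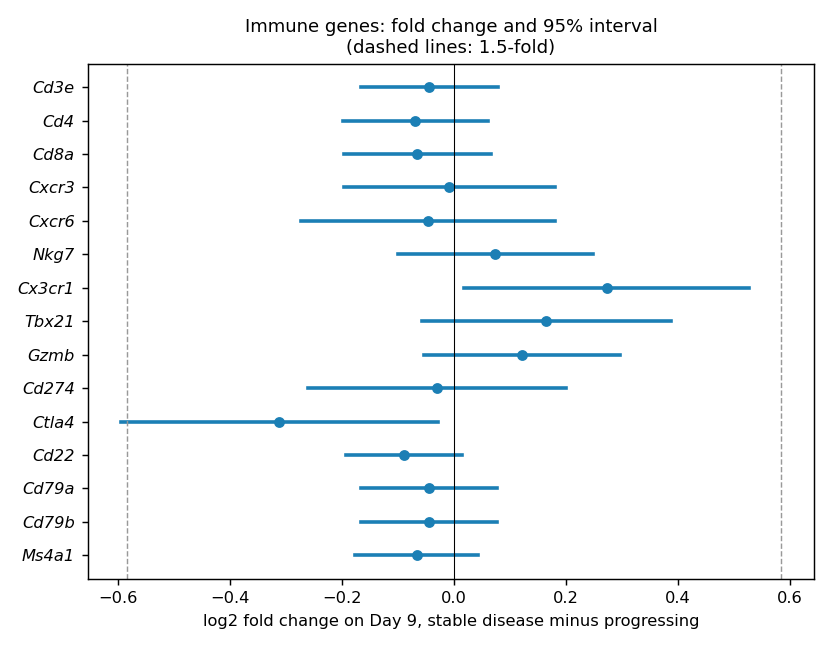
Log2 fold change on Day 9 (stable disease minus progression, points) with 95% confidence intervals (bars) for 15 lymphocyte and checkpoint genes, with dashed lines at 1.5-fold. Apart from Ctla4, whose interval runs from -0.60 to -0.03, every interval lies inside the dashed lines, and Cx3cr1 (0.27) lies highest.

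Red cell and dividing cell genes leaned towards PD, also without a call. Of 29 red cell precursor and reticulocyte genes, 1 had a positive difference, 0 had an unadjusted p under 0.05 and the median was -0.19. Alas2, the first enzyme of haem synthesis in red cells, differed by -0.22 (SE 0.15) and the globin gene Hba-a1 by -0.29 (SE 0.18). The median over 6 haemoglobin genes was -0.26, and the mean haemoglobin share was lower in SD as well, as given above. Of 36 proliferation genes, 0 were higher and 3 lower at an unadjusted p under 0.05, with a median of -0.13, Top2a at -0.17 (SE 0.074) and Mki67 at -0.17 (SE 0.10). In mice with 3-digit tags the red cell, haemoglobin and proliferation medians were -0.11, -0.20 and -0.10. In mice with 4-digit tags they were -0.45, -0.465 and -0.22. Cytosolic ribosomal protein genes had a median of -0.05, with 0 higher and 10 lower of 84, and all 84 intervals lay within 1.5-fold. Platelet genes had a median of -0.004, and their single gene with an unadjusted p under 0.05 was Sparc, which fibroblasts also express (chosen after its values were seen), at -1.49 (SE 0.70). Without TMM scaling, Sparc was above every SD library in mice PD328, PD330 and PD316 only (41.79, 16.36 and 11.55 CPM). Its group medians were 1.595 in SD and 1.637 in PD. The red cell, proliferation, ribosomal, B cell and T cell receptor medians were above 0 in the 3 analyses of TPM, where haemoglobin takes up much of the total and the median of all genes moved up by as much as 0.23. The red cell median (0.03) then lay below that of all genes, and the mature neutrophil median (0.43) above it.

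Epithelial and connective tissue genes were among those with the widest differences on Day 9, and 4 PD libraries held the highest epithelial levels. Dsp, the desmosome plaque protein desmoplakin, differed by -1.99 (SE 0.64), Perp, another desmosome gene, by -1.82 (SE 0.59), Krt6a, a keratin of oral and wounded epithelium, by -1.37 (SE 0.60), and Epcam, an adhesion protein of epithelia, by -1.18 (SE 0.42). Dsp, Perp and Epcam were chosen after their values were seen. Of 28 epithelial genes 9 passed the filter on low counts, and 0 were higher and 5 lower at an unadjusted p under 0.05, with a median of -0.76. The remainder of this description uses CPM over all counts, without TMM scaling, and includes genes that failed the filter.

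Krt5 (chromosome 15, 101707070 to 101712898) and Krt14 (chromosome 11, 100203162 to 100207548), the keratin pair of the basal layer of squamous epithelium, were not tested and were chosen after their values were seen. Krt5 was 35.8 CPM in mouse PD310, 17.2 in mouse PD328, 14.4 in mouse PD330 and 9.18 in mouse PD316. The other 11 PD mice had at most 0.38, and the 15 SD mice at most 2.03 with a median of 0.061. Krt14 was 76.0 in mouse PD310, 21.7 in mouse PD330, 20.1 in mouse PD328 and 11.5 in mouse PD316, against at most 0.823 in the other PD mice and 4.06 in SD. Among responders, mouse R315 was also above every SD library, at 4.005 for Krt5 and 7.946 for Krt14. The 4 PD mice thus lay above every SD library for both keratins, and the remaining PD libraries did not. This rests on counting mouse PD330 as PD: counted as SD, as in the Day 24 list, its own values would be the SD maximum, and mouse PD310 alone would lie above it for both keratins. In counts, mouse PD310 had 1723 for Krt5 and 3661 for Krt14, and mouse PD316, the lowest of the 4, had 535 and 668. Of the 28 epithelial genes, 13 were higher in each of the 4 libraries than in every SD library, and of the 20 stromal genes 0 were. The same share over all genes was not counted, and the 4 libraries were picked for high keratin. The 13 genes therefore describe these libraries and test nothing about the list. The summed level of the list was 245.6 CPM in mouse PD310, 131.8 in PD316, 114.3 in PD328 and 108.7 in PD330, against 8.87 to 57.2 in SD and 4.05 to 72.1 in responders. Among SD mice the highest sum was that of SD319.

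The 4 libraries did not share one profile. Col3a1, a fibrillar collagen of connective tissue (chromosome 1, 45311538 to 45349706), was 60.0 CPM in mouse PD328, 32.1 in PD316 and 23.2 in PD330, above the SD maximum of 12.0, but 6.75 in mouse PD310. The summed stromal, endothelial and muscle list was 209.9, 143.6 and 124.4 in PD328, PD316 and PD330 and 55.5 in PD310, against 37.1 to 94.4 in SD. C1qa was likewise above every SD library in mice PD316, PD328 and PD330 and not in PD310. In the test, the 12 stromal genes that passed the filter had a median log2 difference of -0.52, with 0 higher and 3 lower at an unadjusted p under 0.05, and C1qa differed by -1.39 (SE 0.66).

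On the other days the same mice had low keratin. Krt5 was at most 0.0866 CPM on Day 4 in mice PD310, PD316 and PD328 (mouse PD330 is without a Day 4 library here), at most 0.0734 on Day 17 and at most 0.0865 on Day 24 in all 4. Krt14 was at most 0.129 in the 4 mice on those days. All 4 mice had 3-digit tags, and within Day 9 non-responders the tag series itself differed widely. Of 12425 genes, 1123 (9.04%) differed between the tag series at an adjusted p of 0.05, and 4 of the 9 epithelial genes tested were lower in mice with 4-digit tags. Among mice with 3-digit tags alone the epithelial median was -1.40. The part of the tag series in the high keratin of these 4 libraries, and the source of the transcripts, was not tested.

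**Figure D4:**
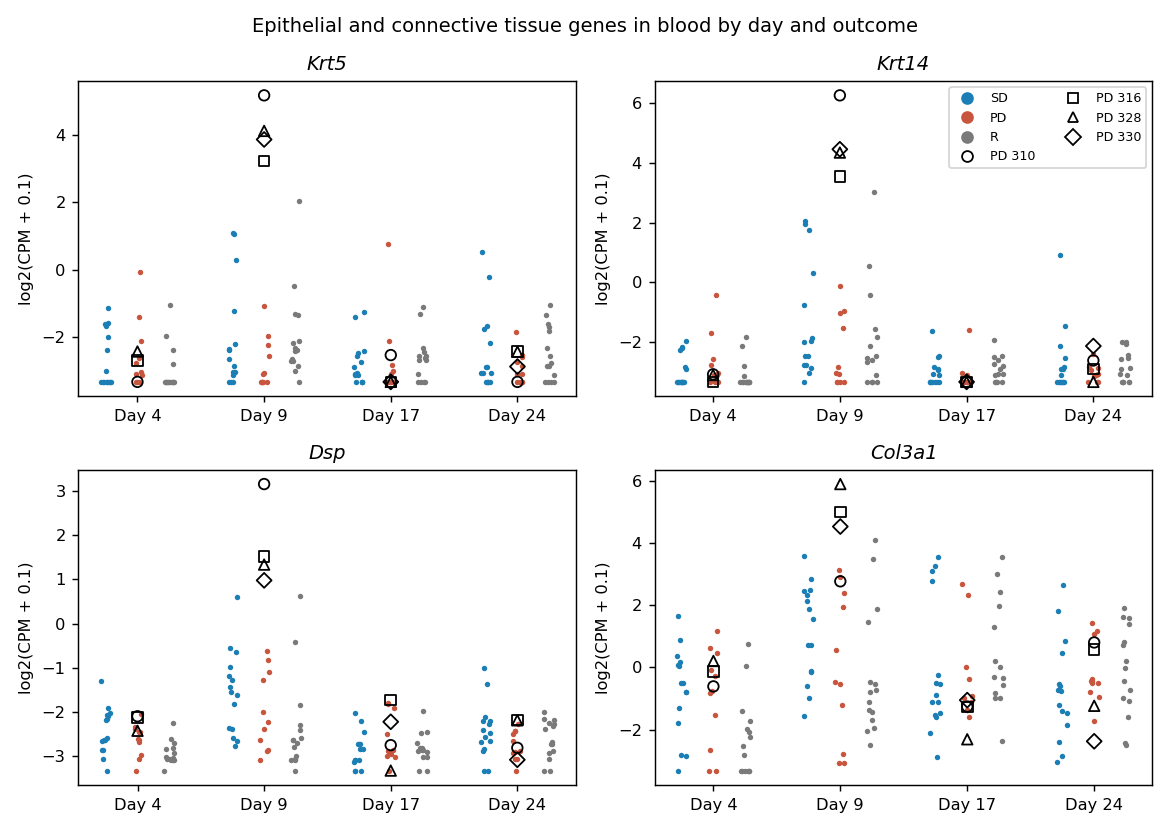
Levels of Krt5, Krt14, Dsp and Col3a1 as log2(CPM + 0.1) in each library by day for SD, PD and R mice, with open symbols for mice PD310, PD316, PD328 and PD330. On Day 9 these 4 mice lie above all SD libraries for Krt5 (9.18 to 35.8 CPM), Krt14 and Dsp, 3 of them do so for Col3a1, and on Days 4, 17 and 24 they lie among the rest.

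The comparison was also run without the 4 libraries, an analysis added after the data were seen. Since they were chosen for high keratin among PD mice only, and the SD libraries with the most keratin (SD319, SD318 and SD324, with Krt14 of 3.25 to 4.06 CPM) were kept, the epithelial and stromal values that follow are set by that choice and show nothing about the groups. Dsp then differed by 0.51 (SE 0.39), Perp by 0.43 (SE 0.32), Epcam by 0.03 (SE 0.27), Col3a1 by 0.37 (SE 0.56) and C1qa by 0.75 (SE 0.50). The epithelial median became 0.43 and the stromal median 0.35. In the same analysis mature neutrophil genes had a median of 0.25 with 7 of 24 higher at an unadjusted p under 0.05, classical monocyte genes 0.24 with 6 of 19, and Fc receptor genes had a median of 0.30 with 9 of 20. By mean log2 CPM over the mature neutrophil list, the 4 libraries left out (3.21 to 3.64) were among the 5 highest of the 15 PD libraries (median 2.85), so the neutrophil values are not independent of that choice either. Nor are those of the Fc receptor list, which holds C1qa. Its highest sum of TMM-scaled CPM among PD libraries was that of PD328 (290.2). By mean log2 CPM over the classical monocyte list, PD330 (5.115) and PD310 (5.085) lay above the PD median of 4.506. PD328 (4.517) and PD316 (4.506) lay at or near that median. The monocyte values are thus not independent of the choice either. Other lists had fewer genes higher than with all libraries: patrolling monocyte genes had 1 of 15 higher (median 0.08), natural killer genes 1 of 24 (0.05), and the effector memory signature 8 higher and 3 lower of 158 (-0.002). Mmp9 differed by 0.34 (SE 0.14), and B cell genes had a median of -0.08 with 4 of 28 lower. Proliferation genes had a median of -0.10 with 0 of 36 lower, against 3 with all libraries. By mean log2 CPM over that list, PD328 (1.07) was the highest of the 15 PD libraries. Stx1a differed by -0.41 (SE 0.12). edgeR called 0 genes here as well, with a lowest adjusted p of 0.11. Over all 12493 genes tested, 870 (6.96%) had an unadjusted p under 0.05, 568 of them higher in SD and the others lower.

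Before treatment, on Day 4, edgeR called 0 of 12501 genes between the 15 SD and 14 PD mice with a library, with 3140 at an unadjusted p under 0.05 and a lowest adjusted p of 0.10. This count was not stable, since DESeq2 called 1016 genes and edgeR called 1526 among mice with 3-digit tags alone. On Day 4, Stx1a differed by 0.17 (SE 0.21), Akr1e1 by -0.01 (SE 0.16), Rnf166 by 0.06 (SE 0.037), Mmp9 by -0.04 (SE 0.14) and Csf1r by -0.32 (SE 0.13). The median over classical monocyte genes was -0.21 on Day 4 and 0.22 on Day 9, and that over red cell genes -0.58 and -0.19. Whether these values differ between the days is given only by the test of the change below, which called none of the 5 genes named here. Ribosomal protein genes had a median of -0.45 on Day 4, with 80 of 84 lower at an unadjusted p under 0.05. Of all 12501 genes, 1881 were lower and 1259 higher at that threshold. The lean was not particular to ribosomal genes: 48 respiratory chain genes and 13 mitochondrially encoded genes were lower too, with 0 higher in either list.

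The change from Day 4 to Day 9 differed between the groups for 3 of 13130 genes (0.0228%) at an adjusted p of 0.044 each, by edgeR's test of the interaction. That test took the Day 4 and Day 9 libraries of a mouse as independent. The change was higher in SD for Ndufv1, a subunit of respiratory complex I (0.41 on the log2 scale, SE 0.082), for Noc4l, a ribosome biogenesis factor (0.36, SE 0.075), and for the pseudogene Rpl10a-ps1 (0.87, SE 0.18), named because the list is short, whose reads can be shared with Rpl10a. On Day 9 itself Ndufv1 differed by 0.11 (SE 0.048) and Noc4l by 0.16 (SE 0.059), and on Day 4 by -0.27 (SE 0.062) and -0.17 (SE 0.046). With the mouse as a block the count was 0, and leaving out 1 mouse at a time gave 0 calls for 21 of 30 mice and up to 468, without mouse PD310.

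Against responders, with the 3 outcome groups in 1 model, 891 of 12608 genes (7.07%) differed in SD, 136 higher and 755 lower, and 0 (percent called 0) in PD, with a lowest adjusted p of 0.056 and 2015 genes at an unadjusted p under 0.05. Both contrasts share the responders, and the direct test of SD against PD called 0, so that these counts do not show a difference between SD and PD. DESeq2 called 975 and 576. Leaving out 1 library at a time, edgeR called from 398 to 990 genes for SD and from 0 to 550 for PD. Red cell precursor genes were among those that differed in SD: 27 of 30 were lower than in responders, with a median of -0.82, and the same genes had a median of -0.62 in PD with 0 called. Alas2 was lower by 0.74 (SE 0.18, adjusted p = 0.0069) in SD, and its difference in PD was -0.52 (SE 0.19, adjusted p = 0.12). Slc4a1, the anion exchanger band 3 of red cells, gave -0.95 (SE 0.22, adjusted p = 0.0045) and -0.69 (SE 0.22, adjusted p = 0.087), both from edgeR. Isg15 was lower in SD than in responders by 0.69 (SE 0.18, adjusted p = 0.012), and the value in PD was -0.52 (SE 0.19, adjusted p = 0.12). The interferon-stimulated list as a whole did not follow it, with 3 of 36 genes higher and 2 lower in SD than in responders and a median of 0.15, and 0 called in PD with a median of 0.04. Of the responders 11 of 15 had 4-digit tags, so outcome and tag series were partly confounded in these contrasts.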

How the data were processed

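Retro-orbital blood was lysed in TRIzol, and SMARTer mRNA-Seq libraries were prepared from polyA RNA. The authors aligned reads to mm10 (STAR is named in the submitters' processing notes; the counting tool is not given in the sources used here) and deposited estimated counts per gene, of which 3.14% of cells are not whole, and TPM values computed from them per library. Counts were rounded. All 55450 gene identifiers matched GENCODE M21 of GRCm38, the source of positions. The main test was edgeR 4.0.16 (R 4.3.3) with filterByExpr, TMM scaling, a quasi-likelihood F test with the ear tag series as covariate and Benjamini-Hochberg adjustment, called at an adjusted p of at most 0.05. Scaled CPM is relative to all counts, haemoglobin included. SE is the log2 difference divided by the square root of F. Library values were tested by permutation (100000 resamples). The pipeline was tested on simulated data. The alternatives were DESeq2 1.42.0, limma 3.58.1 on log2(TPM + 1 or + 0.1), Wilcoxon tests on TPM, other filters and scalings, each tag series, the mouse as replicate block and leaving out libraries. Libraries of 1 ear tag come from the same animal. Their deviations from group means correlated from -0.20 to 0.43 over 29 mice (median 0.12).

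Named genes were the 6 with the smallest p in each direction, the first 3 tested of each of 39 gene lists and genes the study names, and others are said to be chosen after their values were seen. The members, the lists and the comparison were chosen with earlier results of these data known. The number of counts limits scarce genes, as the intervals by level show. The Day 17 library of PD7203, whose label differs from those of its other days, was not used. The text prints only part of the genes selected by this rule, and several lists are not reported here.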

Additional observations from a re-analysis of the deposited data

Results flagged for a closer look

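What set these values apart is a tested difference between groups. For 3 genes the change from Day 4 to Day 9 differed between SD and PD by edgeR's interaction test at an adjusted p of 0.044. That test did not take account of which libraries came from the same mouse. The difference of the changes, SD minus PD, was 0.4136 for Ndufv1, 0.867 for Rpl10a-ps1 and 0.3631 for Noc4l on the log2 scale. With the mouse as a block the adjusted p was 0.12 for Ndufv1 and 0.11 for the other two, at differences of 0.42, 0.83 and 0.37.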

How the results depend on the processing

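The count of 0 genes between SD and PD on Day 9 held in every alternative run, with 421 to 2251 genes at an unadjusted p under 0.05, and leaving out 1 library at a time gave 0 calls each. The number at an unadjusted p under 0.05 was then lowest without SD318 (642) and highest without PD313 (1486). Analyses of TPM with a minimum mean of 1 shifted the median of all genes by 0.16 (pseudocount 1) or 0.23 (0.1). There 61 and 62 of 171 named genes changed sign. Among mice with 4-digit tags 40 of 227 named genes and 12 of 39 lists did so. Without the 4 libraries high in keratin it was 34 of 237 named genes and 7 of 39 lists. No gene was called in this comparison, so each change of sign concerned an uncalled value. The signs of Dsp, Perp and Epcam without the 4 libraries high in keratin follow from the choice of those libraries. The difference of the group effect between tag series had 0 calls and 483 genes at an unadjusted p under 0.05.

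On Day 4, 0 calls became 1526 among mice with 3-digit tags and 1016 with DESeq2. For the change from Day 4 to Day 9, 3 calls became 0 with the mouse as replicate block, 0 with no covariate, 193 among mice with 3-digit tags and 434 with DESeq2, and from 0 to 468 leaving out 1 mouse: 468 without PD310, 94 without PD7222, 58 without SD314, 31 without SD312, 8 without SD302, 6 without PD7220, 1 without PD313 and 0 without any of 21 others. SD against R, 891 calls, gave 1344 with no covariate, 496 among mice with 3-digit tags and from 398 (without R322) to 990 leaving out 1 library. PD against R, 0 calls, gave 1323 with no covariate, 576 with DESeq2, 47 without the 4 libraries high in keratin and from 0 to 550 leaving out 1 library: 550 without R311, 488 without SD7223, 347 without PD304, 332 without R7205, 85 without R7208, 56 without PD330, 29 without PD329, 20 without PD7203 and 5 without R315. The cause of these changes was not tested.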
